A study of Mus musculus with 23 samples.

Results

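Glutathione transferases couple the tripeptide glutathione to reactive, electrophilic compounds, which makes these compounds more soluble and ready for export from the cell. The cytosolic enzymes fall into sequence classes such as alpha, mu, omega and pi, while the microsomal enzymes sit in membranes and belong to another family, some of whose members also reduce lipid peroxides or make leukotriene C4. In epithelia, many of their genes are known targets of the transcription factor NRF2, which is encoded by Nfe2l2. Messenger RNA of 10 glutathione transferase genes, out of 27207 genes counted, was followed across pancreatic tumour cells grown flat or as organoids. These were the alpha class genes Gsta1, Gm3776, Gsta3 and Gsta4, the mu class gene Gstm1, the omega class gene Gsto1, the pi class gene Gstp1, and the microsomal genes Mgst1, Mgst2 and Mgst3. They were chosen by gene symbol, and with their levels in the 6 groups already known, so the differences between groups are given for these 10 genes as descriptions, without a test. All 10 passed the filter on low counts, as did 11144 genes in total.

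The study sequenced bulk RNA from 23 mouse cultures. The cells of 5 groups came from one primary pancreatic ductal adenocarcinoma line, 9591, of a KC mouse, a tumour model in which Cre recombinase is driven from the Ptf1a locus (Ptf1a Cre/+). These KC groups were cells in flat (2D) culture (n = 6), organoids in Matrigel at day 13 (n = 3), organoids in collagen at day 7 (n = 3), and organoids in collagen at day 13, of which 5 belong to batch 1 and 3 to batch 2. The group that remains held 3 organoid samples of batch 2, in collagen at day 13, of line 14390 from a KPC mouse, a tumour model with Pdx1 Cre/+. Each genotype is 1 line from 1 mouse, so that genotype and line cannot be told apart. The other groups belong to batch 1, called the first batch below. The collagen was rat tail collagen type I in floating gels. Organoids were freed with collagenase before lysis and 2D cells were lysed directly, so that dimension and this handling cannot be told apart either. The study counts its Matrigel samples, its day 7 samples and the first-batch day 13 samples in collagen as separate experiments. For the 2D and second-batch samples the labels give only replicate numbers, and the spread given here is that between libraries.

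The libraries held 1221451 to 2471058 UMI counts each, with a median of 1845921, where a UMI is a molecular tag that lets each captured RNA molecule be counted once. Levels are given as CPM, the counts of a gene per 1000000 counts of the library, with library sizes adjusted by the TMM method. Only the 3′ ends of RNAs were counted. Levels are compared between groups and not between genes. All 8 ductal or epithelial markers were found in every group, with summed levels between 7138 and 13929 CPM, although Epcam was at only 4.62 to 7.80 CPM at day 7. Of 8 fibroblast markers, 4 to 6 per group exceeded 3 counts in a library with Thy1 at 0. Their sum was 61.1 to 186 CPM in 2D and 32.5 to 48.9 CPM in KPC, and between 42.1 and 101 CPM in the other groups, and its part in the results was not tested. Of 6 leukocyte markers 4 were among the counted genes, and only Cd68 exceeded 3 counts. None of 4 endothelial markers did. Of 5 acinar markers 2 were among the counted genes, and only Cela1 exceeded 3 counts. The leukocyte sum was 4.54 to 18.1 CPM in 2D, 3.39 to 5.85 CPM at day 7, 11.98 to 21.9 CPM in the first day 13 batch, 30.5 to 36.4 CPM in Matrigel, 18.5 to 21.1 CPM in the second KC batch and 5.95 to 11.5 CPM in KPC, and its part in the results was not tested. Neither was that of the epithelial sum, at 12345 to 13929 CPM in the second KC batch and 9784 to 11322 CPM in KPC. The 2D libraries fell into sets, replicates 1 to 3 and replicates 4 to 6. Over the 500 most variable genes the root mean square distance was 1.30 to 1.49 log2 units between sets and 0.49 to 0.77 within them. Some results on 2D cells are therefore given with each set. The TMM factors were 0.767, 0.772 and 0.738 in 2D replicates 1 to 3 and 1.05, 1.06 and 1.04 in replicates 4 to 6. At like counts per library total, CPM are thus higher in the first set, and the sets were not compared without these factors. The first day 13 batch in collagen also parted, less widely, with a distance of 0.70 to 0.79 between replicates 1 to 3 and replicates 4 and 5 and of 0.54 to 0.62 within these sets. Results on this batch are treated in the same way. In such bulk samples, fewer cells of a type and less RNA per cell cannot be told apart.

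The genes lie on 5 chromosomes of GRCm38, and 3 alpha class genes lie close together. On the plus strand of chromosome 9, Gsta4 spans chr9:78182774-78209349, Gsta1 spans chr9:78230656-78242684 and Gm3776 spans chr9:78257129-78269166, so that Gsta1 begins 21.3 kb after Gsta4 ends and Gm3776 begins 14.4 kb after Gsta1 ends. Gsta3 (chr1:21240589-21265661, plus strand) and Mgst3 (chr1:167371966-167393841, minus strand) share chromosome 1. Mgst2 (chr3:51660360-51682677, plus strand) and Gstm1 (chr3:108012255-108017973, minus strand) are both on chromosome 3, and Mgst1 is at chr6:138140316-138156755 on the plus strand. Gstp1 (chr19:4035407-4037985, minus strand) and Gsto1 (chr19:47854970-47864790, plus strand) lie 43817 kb apart on chromosome 19. Each symbol is a whole gene, and the counts were assigned to genes and not to single exons.

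Gsta1 and Gm3776 are near-identical copies, and how far their reads can be told apart bears on every value of the pair. Their transcripts of 875 and 874 bases differed at 4 of 874 aligned positions, an identity of 99.5%. Counted from 1 at the 5′ end of the Gsta1 transcript, with the Gsta1 base first, the differences were G10T, T40G, T122C and C688T. Only 2 of them were among the 672 coding bases, and none was in the aligned sequence after the coding part. C688T was the only substitution within the last 300 bases, the end that a 3′ library reads, beside 1 unaligned base after the coding part. A stretch of 125 coding bases is shown because it holds this substitution, which is in capitals (transcript positions 626 to 750).
Gsta1: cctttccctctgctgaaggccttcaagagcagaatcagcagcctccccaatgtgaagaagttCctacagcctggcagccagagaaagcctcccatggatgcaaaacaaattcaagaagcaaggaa
Gm3776: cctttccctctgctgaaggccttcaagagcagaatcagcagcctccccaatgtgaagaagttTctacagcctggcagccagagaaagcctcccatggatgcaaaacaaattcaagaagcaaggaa
Of the 63-base windows of the last 300 bases of Gsta1, the length of the cDNA read, 174 of 238 (73.1%) occurred unchanged in Gm3776. How reads that match both genes were counted is not given in the sources used here. Smaller parts of the pair were shared with 2 further alpha class genes, with 37.3% of the windows of the whole Gsta1 transcript occurring in Gsta2 and 35.3% of those of Gm3776 in Gm10639, and none of the Gsta1 windows occurred in Gsta3 or Gsta4.

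Around their starts the pair was also closely alike. Promoter sequences from RefSeq (GRCm38.p6, 250 bases before to 50 bases after the start) were found for 9 of the 10 genes, with Gsta4 missing. Those of Gsta1 (chr9:78230419-78230718, plus strand) and Gm3776 (chr9:78256879-78257178, plus strand) are shown because the genes had like levels in the KC groups and unlike levels in the KPC line. They differed at 3 of 287 aligned positions, an identity of 99.0%. Capitals mark these positions and the 13 bases of each end that had no partner in the other window. The windows reach into the transcripts described above, and the last 2 differing positions are G10T and T40G again.
Gsta1: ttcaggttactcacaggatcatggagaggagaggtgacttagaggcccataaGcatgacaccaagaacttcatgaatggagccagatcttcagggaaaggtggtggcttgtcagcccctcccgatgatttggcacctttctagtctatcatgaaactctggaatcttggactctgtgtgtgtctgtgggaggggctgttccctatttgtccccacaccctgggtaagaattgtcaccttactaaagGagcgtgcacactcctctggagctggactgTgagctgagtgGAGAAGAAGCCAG
Gm3776: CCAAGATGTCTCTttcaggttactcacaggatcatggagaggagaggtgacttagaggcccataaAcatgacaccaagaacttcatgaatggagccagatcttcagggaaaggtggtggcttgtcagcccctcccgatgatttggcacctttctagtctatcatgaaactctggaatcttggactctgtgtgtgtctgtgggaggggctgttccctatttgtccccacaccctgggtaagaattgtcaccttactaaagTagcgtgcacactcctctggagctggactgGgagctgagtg
The 9 genes had 11 promoters in this set. The letters TGACNNNGC of the antioxidant response element, which NRF2 binds, were found on either strand in 2 of these (12.4% of all 32851 promoters). They belonged to Gsta3 and Mgst1. The core letters GCGTG of the xenobiotic response element, which the aryl hydrocarbon receptor binds, were found in 6 of the 11 (32.4% of all). These were promoters of Gsta1, Gm3776, Gstm1, Gstp1 and Mgst3. The 2 promoters of Gstm1 overlap and hold the same match. The matches of Gsta1 and Gm3776 lie in near-identical sequence, inside the transcripts described above, so the 6 are not independent. The AP-1 letters TGANTCA were in 2 of the 11, of Gstp1 and Mgst2 (7.81% of all). No 2 of these matches overlapped in a member promoter, and a match describes the letters only.

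**Figure D1:**
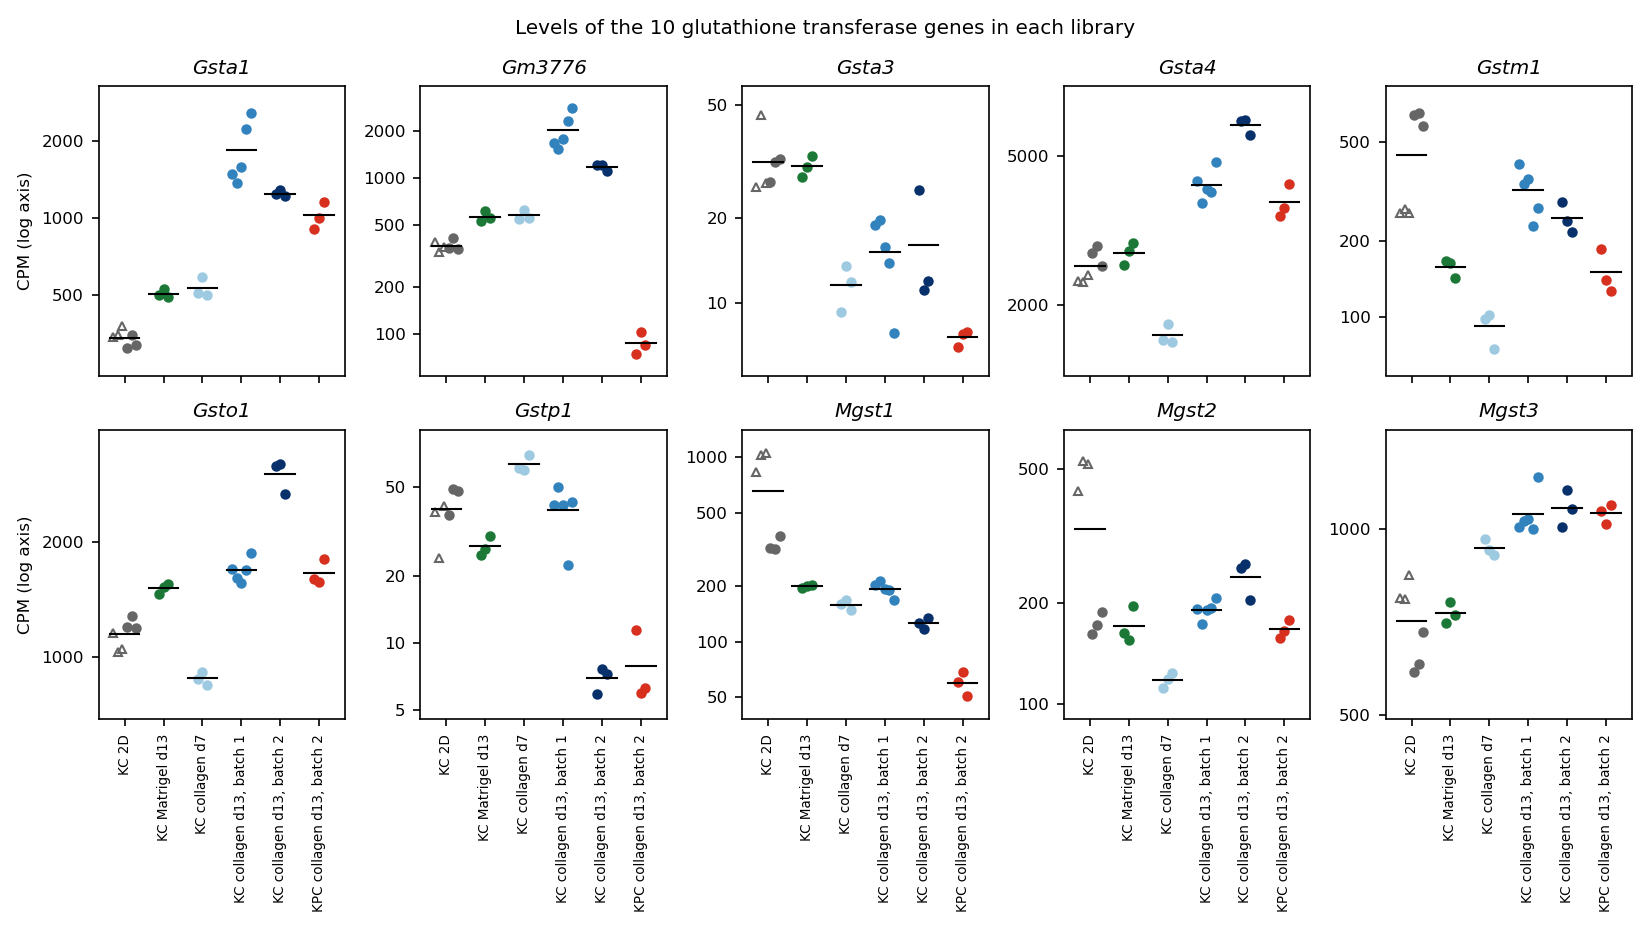
Level of each of the 10 genes in each of the 23 libraries, in CPM on a log axis, by group. Each point is a library, bars are group means, and open triangles are 2D replicates 1 to 3. Gm3776 dropped out of step with Gsta1 only in the 3 KPC libraries (74.3 to 102 CPM). The 2D libraries fell into 2 sets most widely for Gstm1, Mgst1 and Mgst2, and less widely for Gsta4, Gsto1 and Mgst3. The TMM factors used for CPM also differ between these sets.

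Gsta1 encodes an alpha class enzyme that conjugates glutathione and reduces lipid hydroperoxides. Its level was lowest in 2D cells, at 309 CPM in the lowest library, 344 at the median and 376 in the highest. Matrigel organoids had 497, 525 and 491 CPM and day 7 collagen organoids 508, 587 and 500 CPM, and these groups overlapped. At day 13 in collagen, the first batch had 1482, 1376, 1590.2, 2239 and 2574 CPM. The second batch had 1239, 1283 and 1218 CPM, and the KPC organoids 909, 1002 and 1161 CPM. Every day 13 collagen library was thus above every library of the other conditions, and in the first batch replicates 4 and 5 stood above replicates 1 to 3. In the order 2D, Matrigel, day 7, KPC, second batch, first batch, the Matrigel and day 7 groups were the only neighbours that overlapped.

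Gm3776, the predicted gene that copies Gsta1, followed the same order in the KC groups. The 2D libraries had 334 CPM at the lowest, 356 at the median and 410.0 at the highest. Matrigel organoids had 529, 609 and 547 CPM and day 7 organoids 543, 619 and 555 CPM, which overlapped. The first batch at day 13 in collagen had 1677, 1537, 1769, 2316 and 2807 CPM and the second 1207, 1206 and 1107 CPM. In the KPC libraries the level was 74.3, 102 and 84.0 CPM, below every KC library. The means thus ran from 86.8 ± 14.3 CPM (SD, n = 3) in KPC to 2021 ± 529.6 CPM (SD, n = 5) in the first KC batch, and the geometric group means spanned a 22.6-fold range, the widest of the 10 genes.

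The share of Gm3776 in the summed counts of the pair put this difference on a scale that does not depend on library size, for transcripts of almost the same length. In 2D cells Gm3776 made up 51.7% ± 2.24 (SD, n = 6) of the pair, in Matrigel 52.6% ± 1.08 (SD, n = 3), and at day 7 in collagen 51.9% ± 0.669 (SD, n = 3). At day 13 in collagen it made up 52.3% ± 0.880 (SD, n = 5) in the first batch and 48.5% ± 0.860 (SD, n = 3) in the second. In the KPC organoids the share was 7.85% ± 1.29 (SD, n = 3), with 117 of 1549, 172 of 1857 and 160 of 2372 counts. The exact 95% binomial intervals of the KPC libraries together reached from 5.77% to 10.7%, and the lowest bound of any KC library was 45.2%. These intervals cover counting error only. The summed level of the pair was 2325 to 2489 CPM in the second KC batch and 983 to 1245 CPM in KPC, so the sum was also lower.

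**Figure D2:**
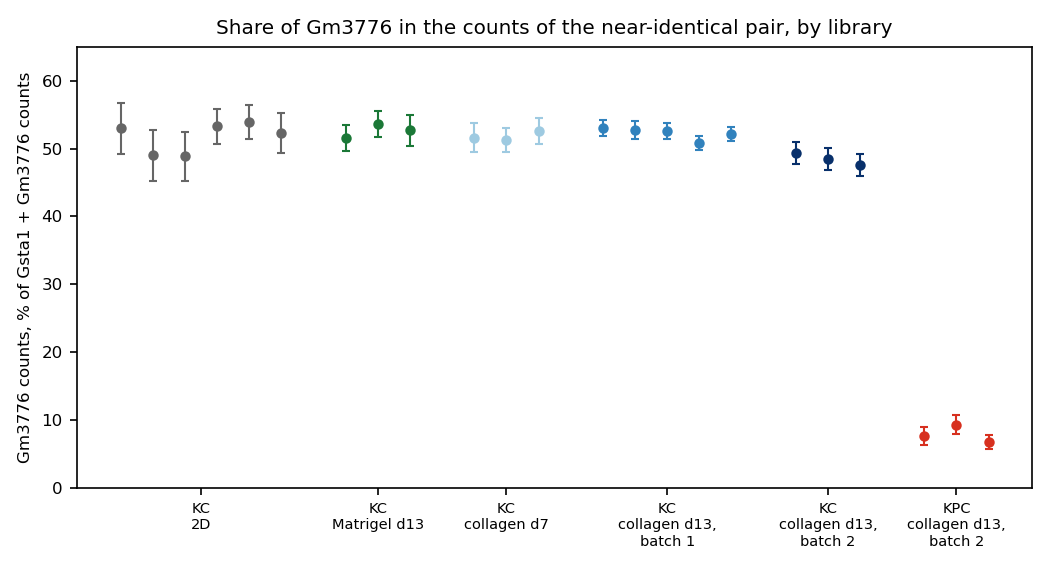
Share of Gm3776 in the summed counts of Gsta1 and Gm3776, in percent, for each library by group, with exact 95% binomial intervals. The 20 KC libraries lay between 47.6% and 54.0% and the 3 KPC libraries between 6.75% and 9.26%.

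Gsta3 encodes the alpha class enzyme known in mouse liver for conjugating the epoxide of aflatoxin. It was counted rarely, with 11 to 71 counts per library. The 2D libraries had 25.6 CPM at the lowest, 29.1 at the median and 46.3 at the highest, and the Matrigel libraries 27.8, 30.3 and 33.0 CPM, so these groups overlapped. Collagen organoids had less. At day 7 they had 9.26, 13.5 and 11.9 CPM, in the first batch at day 13 they had 18.9, 19.5, 15.7, 13.8 and 7.83 CPM, and in the second 25.01, 11.1 and 11.9 CPM. The KPC libraries, at 6.98, 7.73 and 7.87 CPM, were below every KC library but the fifth of the first batch, which lay between them.

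Gsta4 encodes the alpha class enzyme that conjugates 4-hydroxynonenal, an aldehyde formed when lipids are oxidized. It was lowest at day 7 in collagen, with 1618, 1789 and 1601 CPM. The 2D libraries had 2315 CPM at the lowest, 2477 at the median and 2887 at the highest, and overlapped with the Matrigel libraries at 2562, 2799.9 and 2933 CPM. At day 13 in collagen the first batch had 4297, 3752, 4075, 4016 and 4809.7 CPM, which overlapped with the KPC libraries at 3451, 3645 and 4211 CPM. The second KC batch was highest, at 6183, 6243 and 5681 CPM. Gsta4 therefore shared with Gsta1 the higher level at day 13 in collagen but not the order of the batches.

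Gsto1 encodes the omega class enzyme, which acts as a thiol transferase and reduces dehydroascorbate. Its levels ran almost parallel to those of Gsta4. Day 7 collagen organoids had the lowest, with 875, 916 and 844 CPM, followed by 2D cells with 1028 CPM at the lowest, 1174 at the median and 1277 at the highest. Matrigel libraries had 1464, 1525 and 1556 CPM and KPC libraries 1603, 1569 and 1809.8 CPM. The first batch at day 13 in collagen had 1695, 1613, 1563, 1684 and 1873 CPM and overlapped with KPC, and the second batch was above all other groups at 3163, 3198 and 2671 CPM. Across the 6 group means of log2 CPM, each centred on its own mean, Gsta4 and Gsto1 differed by a root mean square of 0.15, the smallest value among the 45 pairs of these genes.

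Gstm1 encodes a mu class enzyme that conjugates many xenobiotics. It was lowest at day 7 in collagen (98.0, 102 and 74.6 CPM). The KPC libraries had 186, 140.4 and 127 CPM and overlapped with Matrigel at 167, 163 and 143 CPM. At day 13 in collagen the first KC batch had 407, 339.9, 356, 231 and 273 CPM and the second 288, 241 and 219 CPM. Here replicates 4 and 5 of the first batch were below replicates 1 to 3, the opposite of Gsta1. The 2D libraries had 260.5, 270.0 and 259 CPM in replicates 1 to 3 and 638, 653 and 582 CPM in replicates 4 to 6, and only the latter set was above every collagen library.

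Gstp1 encodes the pi class enzyme, which is abundant in many human tumours. Its highest level was at day 7 in collagen, with 60.4, 59.3 and 69.1 CPM, where Gsta4, Gsto1, Gstm1 and Mgst2 were lowest. The 2D libraries had 24.1 CPM at the lowest, 39.8 at the median and 48.7 at the highest, the first day 13 batch 41.5, 49.6, 41.4, 22.3 and 42.8 CPM, and the Matrigel libraries 24.6, 26.4 and 30.1 CPM, and these 3 groups overlapped. Both groups of the second batch were far lower, with 5.92, 7.63 and 7.29 CPM in KC and 11.4, 5.95 and 6.30 CPM in KPC. These rest on 9 to 18 counts per library. Of the 63-base windows of the Gstp1 transcript, 59.9% occurred in Gstp2 and 41.2% in the pseudogene Gstp-ps. Gstp-ps had 18 to 29 counts per library in the first batch at day 13 and 6 to 10 in the second, where Gstp1 had 50 to 104 and 9 to 11.

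Mgst1 encodes a membrane enzyme of the endoplasmic reticulum and outer mitochondrial membrane, with transferase and peroxidase activity. It was highest in 2D cells, where replicates 1 to 3 had 830.5, 1026 and 1051 CPM and replicates 4 to 6 had 320.4, 316 and 373 CPM. All organoid libraries were below both sets. Matrigel libraries had 194, 199.8 and 204 CPM and the first day 13 batch 203, 214, 193, 191 and 169 CPM, and they overlapped. Day 7 libraries had 159, 169 and 149 CPM, the second batch 126, 118 and 134 CPM, and KPC, below all others, 60.3, 68.4 and 50.9 CPM. Over the geometric group means the range was 9.42-fold.

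Mgst2, whose enzyme can make leukotriene C4 and reduce lipid hydroperoxides, showed the same 2 sets of 2D libraries. Replicates 1 to 3 had 429, 526 and 518 CPM and replicates 4 to 6 had 161, 172 and 187 CPM. Among the organoids, those of day 7 were lowest at 112, 119 and 123 CPM. KPC libraries (157, 165 and 177.4 CPM), Matrigel libraries (162, 155 and 196 CPM) and the first day 13 batch (191, 173, 189.8, 193 and 207 CPM) overlapped in turn, as did the first batch and the second at 253, 260.0 and 203 CPM. The lower set of 2D libraries was thus within the range of the organoids.

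Mgst3, whose enzyme is related to Mgst2 and has peroxidase activity, varied least. The 2D libraries had 588 CPM at the lowest, 727 at the median and 844 at the highest, and overlapped with Matrigel at 706, 763 and 728 CPM. Day 7 organoids had 966, 926 and 910.2 CPM. The 3 groups of day 13 in collagen overlapped, with 1008, 1032, 1039, 1002 and 1216 CPM in the first KC batch, 1010.4, 1158 and 1078 CPM in the second and 1070.1, 1019.7 and 1096 CPM in KPC. The range over geometric group means was 1.53-fold. Summed over the 10 genes, the level was 5029 ± 241 CPM (SD, n = 3) at day 7, 6608 ± 232 CPM (SD, n = 6) in 2D, 6664 ± 287 CPM (SD, n = 3) in Matrigel and 7995 ± 645 CPM (SD, n = 3) in KPC. It was 11569 ± 1493 CPM (SD, n = 5) and 13186 ± 748 CPM (SD, n = 3) in the KC batches of day 13 in collagen. Gsta4 was the largest part of this sum in each group, with a mean of 6036 CPM in the second KC batch.

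**Figure D3:**
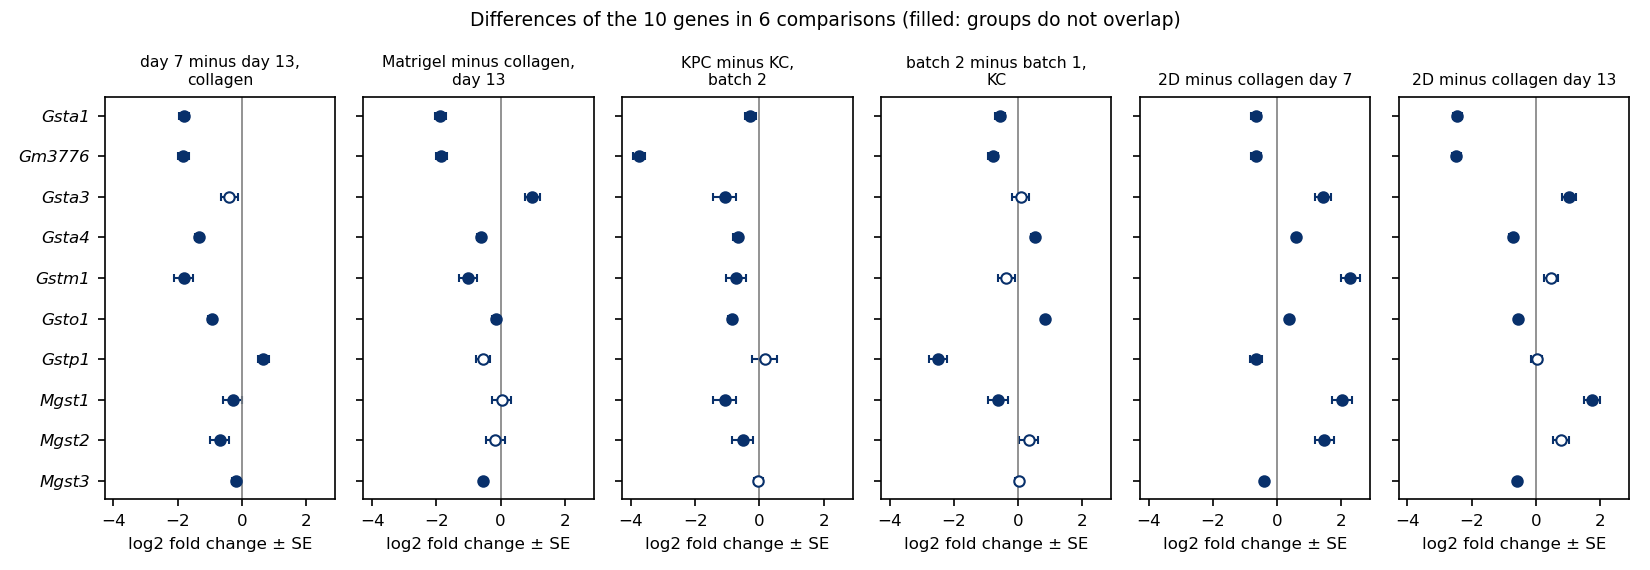
Log2 fold changes of the 10 genes with their standard errors in 6 comparisons, as described and not tested; filled points mark genes whose groups did not overlap. In day 7 against day 13 in collagen, 8 genes were lower without overlap and Gstp1 was higher, and in KPC against KC Gm3776 stood apart at −3.75.

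Day 7 and day 13 in collagen are the sampled times, an earlier stage at which branches extend and a later one at which lumens form. At day 7, 8 of the 10 genes were lower and 1 was higher without overlap between the groups, where 48.3% of all tested genes did not overlap in either direction. The median log2 fold change of the 10 genes was −0.82, and that of all tested genes 0.01. The alpha pair and Gstm1 were 3.48-fold (Gsta1), 3.53-fold (Gm3776) and 3.51-fold (Gstm1) lower, with log2 fold changes of −1.80 ± 0.17, −1.82 ± 0.16 and −1.81 ± 0.29 (SE). Against replicates 1 to 3 of day 13 alone, Gsta1 was at −1.48 and Gm3776 at −1.54. Gsta4 differed by −1.33 ± 0.13, Gsto1 by −0.94 ± 0.11 and Mgst2 by −0.69 ± 0.29. Differences were smaller for Mgst1 (−0.29 ± 0.30) and Mgst3 (−0.18 ± 0.12), while Gsta3 overlapped (−0.39 ± 0.26) and was at 0.08 against replicates 4 and 5 of day 13 alone. Gstp1 alone was higher, by 0.67 ± 0.19. With the counts of Gsta1 and Gm3776 summed, the difference was −1.81.

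The other genes of glutathione metabolism were tested with edgeR across all 11144 genes and called at an adjusted p under 0.1. Of 84 genes in 5 lists, 77 were in the table and 58 passed the filter. Besides the called genes with the extreme fold change in each list, genes named here and below were picked after their values were seen. Between day 7 and day 13, 46 of the 58 were called, 19 higher and 27 lower at day 7, where 55.1% of all tested genes were called. Of the 14 other transferases, 10 were lower and 2 higher, with a median log2 fold change of −1.47. The theta class gene Gstt1 fell most at day 7, to 3.92 CPM against 45.1 CPM at day 13, which is 11.5-fold (log2 fold change −3.52 ± 0.26, edgeR adjusted p = 7.3e-11). Gstcd, a gene with a transferase-like domain, was higher (1.14 ± 0.24, adjusted p = 0.00035), and so was Gsta2, whose reads may be shared with Gsta1.

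Of 10 tested genes of glutathione synthesis and supply, 7 were higher at day 7 and 2 lower, with a median of 0.42, and the difference between lists was not tested. Slc7a11, which imports cystine, was at 59.2 CPM at day 7 against 19.2 CPM in the first batch of day 13 (1.63 ± 0.29, edgeR adjusted p = 3.9e-05). This value depended on the day 13 libraries. It was 2.65 against replicates 1 to 3 alone and 0.80 against replicates 4 and 5 alone, and the second KC batch of day 13 had 57.0 CPM, close to day 7. With all 8 KC libraries of day 13 the Slc7a11 difference was 0.87 (adjusted p = 0.060). Gclc, the catalytic subunit of the rate-limiting ligase of glutathione synthesis, was lower (−0.57 ± 0.16, adjusted p = 0.0036), as was Gss, which makes glutathione in the last step. Of 10 peroxidases and glutaredoxins, 4 were higher (Gpx8, Glrx3, Glrx5 and Prdx6) and 3 lower (Gpx2, Glrx and Txndc12). Gpx8, a peroxidase of the endoplasmic reticulum, was higher (0.87 ± 0.24, adjusted p = 0.0036) and Glrx, which removes glutathione from proteins, was lower (−1.51 ± 0.15, adjusted p = 1.0e-08). Of 15 genes of breakdown and export, 6 were called in each direction, with the exporters Abcc1 higher (1.21 ± 0.21, adjusted p = 3.5e-05) and Abcc3 lower (−1.22 ± 0.17, adjusted p = 1.7e-06). Abcc1 was at 25.6 CPM at day 7, 11.1 CPM in the first day 13 batch and 25.05 CPM in the second, and with all 8 KC libraries its difference was 0.70 (adjusted p = 0.039). Among 9 regulators, 6 were lower and none higher, with a median of −0.43, led by the small Maf factor Maff (−0.93 ± 0.19, adjusted p = 0.00017). Nfe2l2 itself was not called (−0.20 ± 0.14, adjusted p = 0.23).

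**Figure D4:**
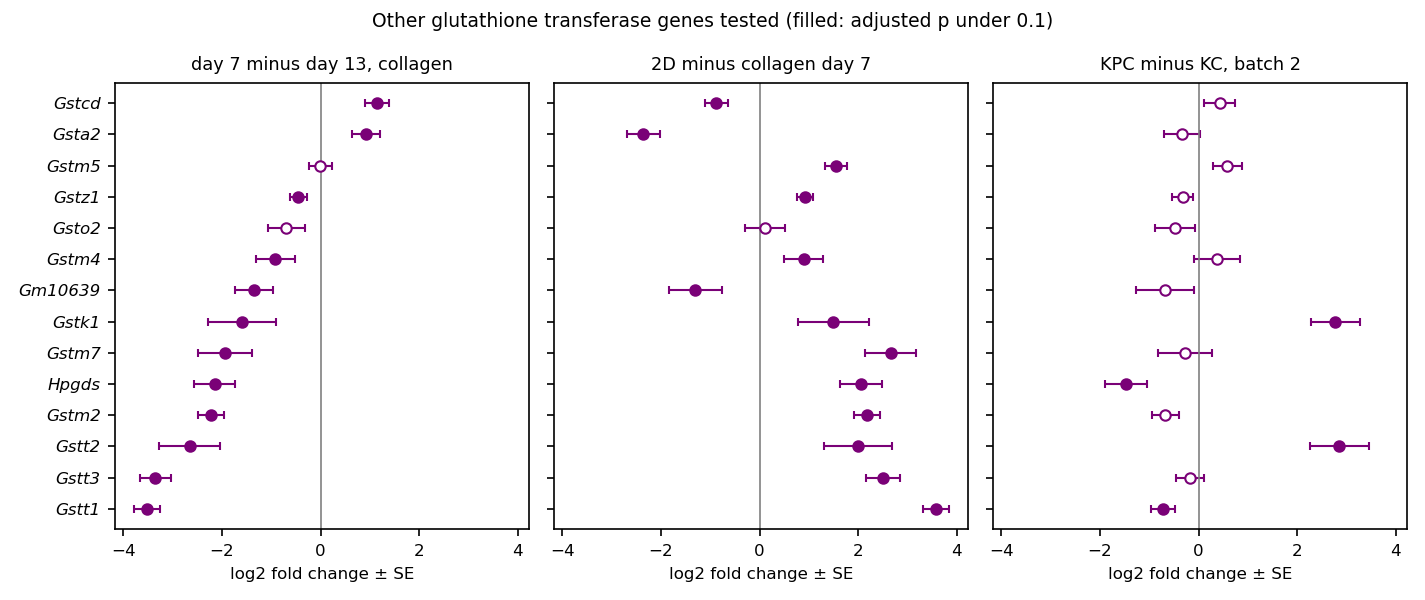
Log2 fold changes with standard errors of the 14 other tested transferases in 3 comparisons, with filled points for an edgeR adjusted p under 0.1. At day 7 against day 13 in collagen, 10 were lower and 2 higher; in 2D against day 7, 10 were higher and 3 lower; in KPC against KC, 2 were called in each direction.

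Matrigel and collagen were compared at day 13 in the first batch, since the matrix sets whether organoids grow as spheres or branch. In Matrigel 6 of the 10 genes were lower and 1 higher without overlap, beside 19.5% of all tested genes, and the median log2 fold change was −0.54, beside −0.01 over all genes. The Gsta1 pair differed most, at −1.88 ± 0.17 for Gsta1, which is 3.67-fold, and −1.85 ± 0.16 for Gm3776. Against collagen replicates 1 to 3 alone, Gsta1 was at −1.55 and Gm3776 at −1.56. Gstm1 was 2.03-fold lower (−1.02 ± 0.28), and Gsta4 (−0.60 ± 0.12), Mgst3 (−0.53 ± 0.12) and Gsto1 (−0.15 ± 0.11) were lower by less. Gsta3 was 1.98-fold higher in Matrigel (0.99 ± 0.23). Gstp1, Mgst1 and Mgst2 overlapped.

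Of the 58 other genes, 12 were called in this comparison, 6 in each direction, beside 12.9% of all genes. Of the 14 other transferases, Gstm5 and Gstk1 were higher in Matrigel and Gsta2 and Gm10639 lower, whose reads may be shared with the Gsta1 pair. Gstm5, a mu class gene, rose by 0.87 ± 0.22 (edgeR adjusted p = 0.011), a call that was lost without Matrigel replicate 3 (0.59, adjusted p = 0.15) and against collagen replicates 4 and 5 alone (0.74, adjusted p = 0.16). Synthesis and supply had 3 of 10 genes lower, Gclm, Gss and Pgd, and none higher. Gss fell by 0.63 on the log2 scale (SE 0.13, adjusted p = 0.0014). Among peroxidases, Gpx2 and Prdx6 were higher. Prdx6, which reduces phospholipid hydroperoxides, rose by 0.42 ± 0.12 (adjusted p = 0.031), which was lost without Matrigel replicate 1 (adjusted p = 0.16) and against collagen replicates 1 to 3 alone (adjusted p = 0.18). Of 15 breakdown and export genes, Abcc1 was higher and the aminopeptidase gene Lap3 lower (−0.58 ± 0.12, adjusted p = 0.0018), and of 9 regulators only Ahr, the aryl hydrocarbon receptor, was called, and was higher at 19.4 CPM against 8.52 CPM.

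The KPC line was compared with the KC line of the same batch. In KPC, 8 of the 10 genes were lower and none higher without overlap, beside 37.3% of all tested genes, with a median log2 fold change of −0.70 beside 0.01. Gm3776 was 13.5-fold lower (−3.75 ± 0.19), while Gsta1 was lower by −0.28 ± 0.17, and the sum of both by −1.12 ± 0.17. Gsta3 (−1.08 ± 0.35) and Mgst1 (−1.08 ± 0.36) came next, though Gsta3 differed by only −0.60 without KC replicate 1 of the second batch. Gsto1 (−0.86 ± 0.12), Gstm1 (−0.72 ± 0.31), Gsta4 (−0.68 ± 0.13) and Mgst2 (−0.52 ± 0.32) were lower as well. Gstp1 (0.16 ± 0.40) and Mgst3 (−0.03 ± 0.13) overlapped. Set against all 8 KC libraries of day 13 in collagen, Gstp1 would be −1.84, since its level differed between the batches.

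Of the other 58 genes, 16 were called, 5 higher and 11 lower in KPC, beside 19.9% of all genes. Scaling by library size alone shifted the median of all genes to 0.13 and gave 7 higher and 7 lower, beside 1853 of all 11144 genes called. Among the 14 transferases, Gstt2 and Gstk1 were higher, and Gstt1 and Hpgds, the prostaglandin D synthase of the sigma class, were lower. Gstk1, of the mitochondrial and peroxisomal kappa class, had 17.1 CPM in KPC and 2.45 CPM in KC (2.78 ± 0.49, edgeR adjusted p = 0.00023), and Gstt2 had 14.8 and 2.01 CPM (2.85 ± 0.60, adjusted p = 0.0014). In this KC batch 3 counts correspond to 1.97 to 2.08 CPM, so both KC means rest on few counts per library. Gstt1 (−0.72 ± 0.25, adjusted p = 0.049) lost its call in 4 of 6 fits that left out a library, the adjusted p reaching 0.18 without KPC replicate 1. Supply had 4 of 10 genes lower and none higher, namely Slc7a11, Slc3a2, Slc1a5 and Gclc. Slc7a11 had 17.4 CPM in KPC and 57.0 CPM in KC (−1.72 ± 0.36, adjusted p = 0.0014). Against all 8 KC libraries it was not called (−0.90, adjusted p = 0.18).

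Peroxidases and glutaredoxins had Glrx and Glrx2 lower and Gpx2 higher in KPC. Glrx differed by −0.75 ± 0.16 (edgeR adjusted p = 0.0014). Gpx2 had 0 counts in each KC library, which allows up to 3 counts, and 4 to 7 counts in KPC, too few for a fold. Of 15 breakdown and export genes, the exporter Abcc5 (−0.81 ± 0.17, adjusted p = 0.0017) and Chac1, which cleaves glutathione, were lower. Lap3 was higher (0.37 ± 0.13, adjusted p = 0.056), a call lost in 4 of 6 fits that left out a library. Of the regulators, Nfe2l2 was lower, at 319 CPM against 492 CPM (−0.62 ± 0.15, adjusted p = 0.0063), which did not pass when libraries were scaled by total counts only (−0.50, adjusted p = 0.16), and Nr1i2, a xenobiotic receptor, was higher.

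The KC organoids of day 13 in collagen were made in both batches, and these groups differ in their labels only by batch. In the second batch 2 of the 10 genes were higher and 4 lower without overlap, beside 35.9% of all tested genes, with a median of −0.17 beside −0.05. Gstp1 was 5.64-fold lower (−2.49 ± 0.29). Gm3776 (−0.78 ± 0.16), Mgst1 (−0.62 ± 0.31) and Gsta1 (−0.57 ± 0.16) were lower, and Gsto1 (0.84 ± 0.11) and Gsta4 (0.53 ± 0.12) higher. Against replicates 1 to 3 of the first batch alone, Gsta1 was at −0.25 and Gm3776 at −0.50. Gsta3, Gstm1, Mgst2 and Mgst3 overlapped, and Gsta3 changed sign to −0.40 without replicate 1 of the second batch.

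Of the other 58 genes, 23 were called between batches, 10 higher and 13 lower, beside 37.3% of all genes. Scaling by library size alone moved the median of all genes to −0.18 and gave 5 higher and 18 lower, beside 4015 of all 11144 genes called. Against replicates 4 and 5 of the first batch alone 15 were called, beside 2359 of all 11144 tested genes. Slc7a11 was higher in the second batch (1.57 ± 0.30, edgeR adjusted p = 0.00026), by 2.59 against replicates 1 to 3 alone and 0.75 against replicates 4 and 5 alone, as was Abcc1 (1.17 ± 0.23, adjusted p = 0.00030). Gpx4, the peroxidase that protects membranes from lipid hydroperoxides, was 4.44-fold lower (−2.15 ± 0.40, adjusted p = 0.00022). Of 14 transferases, 3 were lower, Gm10639, whose reads may be shared with the Gsta1 pair, Gstt1 and Gstt2, and none higher. Gstt1 (−0.57 ± 0.20, adjusted p = 0.030) was not called without replicate 3 of the second batch (adjusted p = 0.17) or against replicates 4 and 5 of the first alone (adjusted p = 0.29). Synthesis and supply had Slc7a11, Slc3a2 and Gclm higher and Gsr, Cth and Slc1a5 lower, with Slc1a5, a glutamine carrier, lower (−0.82 ± 0.18, adjusted p = 0.0013). Peroxidases and glutaredoxins had 1 higher, Glrx (0.35 ± 0.13, adjusted p = 0.050, lost in 4 of 8 fits without a library and, at adjusted p = 0.51, against replicates 4 and 5 of the first batch alone), and 3 lower, Gpx2, Gpx4 and Glrx5. Breakdown and export had 3 higher, among them Abcc1 and Abcc5, and 2 lower, Chac2 and Glo1 (−0.58 ± 0.13, adjusted p = 0.0013), and regulators had Nfe2l2, Nfe2l1 and Bach1 higher and Mafk and Nr1i2 lower. Nfe2l1, a relative of NRF2, rose by 0.62 ± 0.14 (adjusted p = 0.0018, but 0.12 against replicates 4 and 5 of the first batch alone), and Mafk (−0.67 ± 0.19, adjusted p = 0.010) was not called without replicate 3 of the second batch (adjusted p = 0.12).

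**Figure D5:**
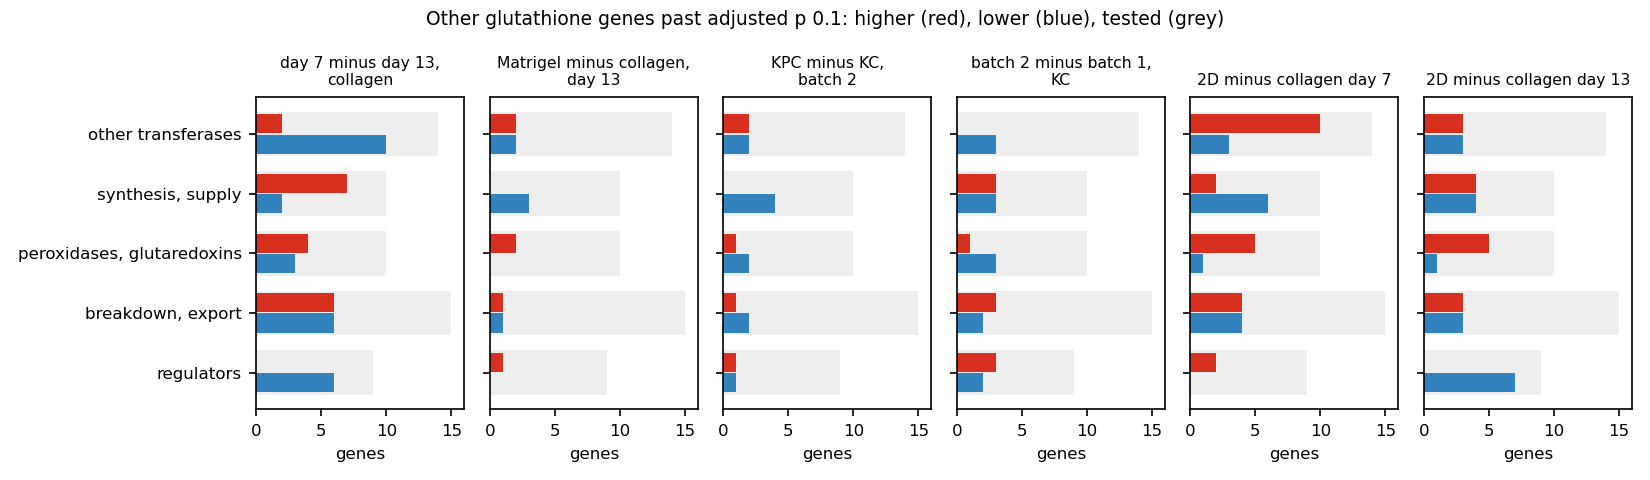
Number of genes called higher (red) and lower (blue) at an edgeR adjusted p under 0.1, out of those tested (grey), in 5 lists of other glutathione genes and 6 comparisons. The other transferases had 10 of 14 called lower at day 7 against day 13 and 10 of 14 called higher in 2D against day 7.

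Cells in 2D culture were compared with the organoids of both days, in the first batch. Against day 7, all 10 genes differed without overlap, 6 higher and 4 lower in 2D, beside 32.3% of all tested genes, with a median of 0.50 beside 0.02. Gstm1 was higher by 2.29 ± 0.29, Mgst1 by 2.03 ± 0.31, Mgst2 by 1.48 ± 0.30, Gsta3 by 1.42 ± 0.25, Gsta4 by 0.61 ± 0.12 and Gsto1 by 0.39 ± 0.11. Gm3776 (−0.65 ± 0.15), Gsta1 (−0.65 ± 0.15), Gstp1 (−0.64 ± 0.18) and Mgst3 (−0.40 ± 0.11) were lower. These sizes depended on the set of 2D libraries. With replicates 1 to 3 alone Gstm1 was at 1.52, Mgst1 at 2.61 and Mgst2 at 2.06, and with replicates 4 to 6 alone at 2.79, 1.10 and 0.57. In the same order of sets, Gsta4 was at 0.49 or 0.73, Gsto1 at 0.29 or 0.50 and Mgst3 at −0.23 or −0.56.

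Against day 13 in collagen, 2 genes were higher and 5 lower in 2D without overlap, beside 20.3% of all tested genes, with a median of −0.26 beside 0.01. The Gsta1 pair was lowest, at −2.45 ± 0.13 for Gsta1 and −2.47 ± 0.13 for Gm3776, followed by Gsta4 (−0.72 ± 0.10), Mgst3 (−0.58 ± 0.10) and Gsto1 (−0.55 ± 0.09). Mgst1 (1.74 ± 0.25) and Gsta3 (1.03 ± 0.20) were higher. Mgst1 was at 2.32 with replicates 1 to 3 alone and 0.76 with replicates 4 to 6 alone, and Mgst3 at −0.41 and −0.80. Gstm1 (0.48 ± 0.22) and Mgst2 (0.78 ± 0.24) overlapped, and each changed sign with one set of 2D libraries, Gstm1 to −0.29 with replicates 1 to 3 and Mgst2 to −0.17 with replicates 4 to 6. Gstp1 overlapped too, at 0.03 ± 0.17. All comparisons with the first batch of day 13 share its 5 libraries, and both comparisons of 2D cells share the 2D libraries, so that their values are not independent.

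Among the other 58 genes, 37 were called in 2D against day 7, 23 higher and 14 lower, beside 51.2% of all genes, and 33 in 2D against day 13, 15 higher and 18 lower, beside 49.6%. Against replicates 1 to 3 of day 13 alone 21 were called, beside 4302 of all 11144 tested genes. Scaling by library size alone moved the median of all genes to −0.14 and −0.20 and gave 17 higher and 15 lower against day 7 and 7 higher and 23 lower against day 13. Over all 11144 genes, 5322 and 5302 were then called. Of the 14 other transferases, 10 were higher in 2D than at day 7 and 3 lower, with a median of 1.53. Gstt1 was higher at 48.4 CPM against 3.92 CPM (3.58 ± 0.26, edgeR adjusted p = 2.0e-10) and Gstcd lower (−0.88 ± 0.24, adjusted p = 0.0046). Gstcd was at −1.21 with 2D replicates 1 to 3 alone and −0.68 with replicates 4 to 6 alone. Against day 13, Gstm5, Gstm7 and Gstz1 were higher and Gstt3, Gsta2 and Gm10639 lower, with Gstm5 (1.55 ± 0.19, adjusted p = 4.9e-07) and Gstt3 (−0.85 ± 0.21, adjusted p = 0.0018). In the same order of 2D sets, Gstm5 was at 1.85 or 1.22 and Gstt3 at −1.29 or −0.64. Reads of Gsta2 and Gm10639 may be shared with the Gsta1 pair.

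Synthesis and supply had 2 higher and 6 lower of 10 in 2D against day 7, and 4 in each direction against day 13. Those higher were Gclc and Cth against day 7, and Slc3a2, Cth, Slc1a5 and G6pdx against day 13, where Gclm, Gss, Gsr and Pgd were lower. Cth, which makes cysteine from cystathionine, was higher in both (1.21 ± 0.29, edgeR adjusted p = 0.0018, and 1.01 ± 0.25, adjusted p = 0.0021). With 2D replicates 1 to 3 or 4 to 6 alone, Cth was at 1.68 or 0.76 against day 7. Against day 13 it was at 1.48 or 0.50 (adjusted p = 0.088 for the latter). Slc7a11 was lower than at day 7 (−1.45 ± 0.28, adjusted p = 0.00023) and Gss lower than at day 13 (−0.88 ± 0.10, adjusted p = 3.8e-07). Peroxidases and glutaredoxins had 5 higher and 1 lower of 10 in each comparison. Gpx4 and Glrx3 were higher in both, with Gpx2, Glrx and Txndc12 against day 7 and Gpx8, Glrx5 and Prdx6 against day 13. The extremes against day 7 were Glrx (1.20 ± 0.15, adjusted p = 1.2e-06) and Glrx5 (−0.29 ± 0.10, adjusted p = 0.027), the latter lost without day 7 replicate 1 (adjusted p = 0.17), with 2D replicates 1 to 3 alone (adjusted p = 0.11) and with the replicate number as a block (adjusted p = 0.13). Against day 13 they were Gpx4 (1.34 ± 0.30, adjusted p = 0.00079), which with 2D replicates 4 to 6 alone was at 0.14 (adjusted p = 0.36), and Glrx (−0.31 ± 0.12, adjusted p = 0.034), lost without replicate 5 of day 13 (adjusted p = 0.10), against day 13 replicates 1 to 3 alone (adjusted p = 0.28) and with 2D replicates 4 to 6 alone (adjusted p = 0.14).

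Breakdown and export had 4 in each direction against day 7 (Chac2, Oplah, Acy3 and Hagh higher, Cndp2, Abcc1 and Abcc4 among those lower) and 3 in each against day 13 (Ggct, Chac1 and Chac2 higher, Abcc3 and Acy3 among those lower). Chac2, which degrades glutathione slowly, was higher than at day 7 (1.30 ± 0.15, edgeR adjusted p = 3.4e-07) and Abcc1 lower (−0.98 ± 0.21, adjusted p = 0.00057). Chac2 was at 1.61 with 2D replicates 1 to 3 alone and 1.01 with replicates 4 to 6 alone. Chac1 was higher than at day 13 (0.92 ± 0.24, adjusted p = 0.0030), though not with 2D replicates 4 to 6 alone (adjusted p = 0.20), and Abcc3 was lower (−1.38 ± 0.14, adjusted p = 3.8e-08). Of 9 regulators, Maff and Nr1i2 were higher in 2D than at day 7, with Maff at 0.57 ± 0.19 (adjusted p = 0.018) and lost without day 7 replicate 2 (adjusted p = 0.18). Against day 13, 7 regulators were lower and none higher, including Mafk (−0.64 ± 0.16, adjusted p = 0.0020), Keap1, which holds NRF2 in check, and Ahr.

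For the 5 genes whose group means spanned at least 2 log2 units, the tested genes with the most similar pattern over the 6 groups were sought, by the root mean square difference of centred group means of log2 CPM. For Gsta1 they were 6430548M08Rik (0.19), Slit1 (0.28) and Leng9 (0.29). Gm3776 had no gene as close, with Plcxd3 at 0.36, Tnxb at 0.49 and Ces2g at 0.64, and its difference from Gsta1 was 1.35. Gstm1 was nearest to Lpl (0.24), Echdc3 (0.24) and Rn7sk (0.25). Gstp1 was nearest to Gm3788 (0.16), Ndufs5 (0.17) and Ftl1 (0.18), and Mgst1 to Gm10362 (0.11), Rps18-ps6 (0.26) and Gm5644 (0.27). These values describe 6 group means only.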

How the data were processed

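The 23 libraries of bulk mouse RNA were made from 3′ ends of poly(A) RNA and carried UMIs. Per the labels and the study's methods, the authors aligned reads to GRCm38 and made the deposited counts, whole UMI counts for 27207 genes per library without normalization, using Drop-seq pipeline 1.0 on the GENCODE M25 annotation. Handling of multi-mapping reads and strand is not given in the sources used here. Groups follow the labels, and some alleles and genes are not reported here.

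From these counts, edgeR 4.0.16 (R 4.3.3) fitted all 23 libraries at once with the 6 groups as terms and TMM factors. The filter filterByExpr kept 11144 genes. Quasi-likelihood F-tests (two-sided) with Benjamini-Hochberg adjustment over these genes called genes under 0.1. CPM use the TMM factors, log2 CPM a prior count of 2, and fold changes and standard errors come from that fit. Totals per library ran from 1221451 to 2471058, and 3 counts correspond to 1.16 to 3.20 CPM. The members and gene lists were chosen with earlier results of these data known. The 10 members were described without tests. In each list and comparison the text names the called genes at both extremes of log2 fold change, given a mean of 20 CPM or more in whichever group was higher, and says where others were named. Likeness was computed for members whose group means spanned at least 2 log2 units.

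Alternatives were DESeq2 1.42.0 (test and size factors), library size scaling, no filter, a mean of at least 10 counts, a threshold of 0.05, the compared groups alone, the replicate number as a block, all 8 KC collagen day 13 libraries, each library left out, the summed Gsta1 and Gm3776 counts and, added after seeing the data, each set of 2D libraries and of first-batch day 13 libraries. Gene positions and transcripts came from a GENCODE annotation of GRCm38, promoters from RefSeq. The edgeR fit was tested on simulated data, for the comparison of KPC with KC only.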

Additional observations from a re-analysis of the deposited data

Results flagged for a closer look

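Of 20 sets of values with 4 to 10 libraries that were examined, each a member in 2D cells or in the first KC batch of day 13 in collagen, 2 had a library far from the others, and chance marks about 1 in 20. Gsta3 was at 46.3 CPM in 2D replicate 2, where the nearest library had 32.2 CPM. Mgst3 was at 1216 CPM in replicate 5 of the first batch, where the nearest had 1039 CPM. The cause of either was not tested.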

How the results depend on the processing

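The counts of other glutathione genes called stayed within 1.5 times of the values reported, except with parts of the first day 13 batch. With its replicates 1 to 3 alone, added after seeing the data, 21 genes were called in 2D against day 13 in place of 33, and with replicates 4 and 5 alone 15 were called between batches in place of 23. Calls over all 11144 tested genes fell as well, from 5525 to 4302 and from 4161 to 2359. The other counts with these sets were 11 and 9 in Matrigel against collagen, 38 and 42 in day 7 against day 13, 23 between batches with replicates 1 to 3 and 31 in 2D against day 13 with replicates 4 and 5. Over all tested genes the calls were 1276 and 1065, 5597 and 5264, 4421, and 4817. Leaving out 1 library at a time gave 8 to 12 in Matrigel against collagen, 38 to 46 in day 7 against day 13, 11 to 15 in KPC against KC, 17 to 26 between batches, 31 to 38 in 2D against day 7 and 27 to 32 in 2D against day 13. Over all tested genes these fits called 874 to 1444, 5365 to 5951, 1595 to 1740, 3121 to 4263, 4528 to 5897 and 4907 to 5654. Deviations of samples with the same replicate number were weakly correlated at most (−0.12 to 0.19). With so few libraries per group this cannot tell whether the numbers mark shared cultures, and they were not used as pairs. The replicate block gave 11, 43, 17, 26, 36 and 30 calls in the same order. Over all tested genes it gave 1561, 6087, 2438, 4805, 6070 and 5695. With 2D replicates 1 to 3 or 4 to 6 alone, also added later, 38 or 40 genes were called against day 7 and 37 or 24 against day 13. Over all tested genes, 6399 or 5149 and 6165 or 4356 were called. For the members, 466 values from alternatives that kept every library included 41 that moved by more than the spread between replicates and 10 that changed sign, among them Gstp1 in KPC against KC, at −1.84 with all 8 KC libraries. Of 500 values without 1 library, 1 moved and 10 changed sign, and of 80 with a set of the first day 13 batch, 24 moved and 5 changed sign. Of 40 with a set of 2D libraries, 28 stayed within that spread and 3 changed sign. In 2D against day 13, Gstm1 changed from 0.48 to −0.29 with 2D replicates 1 to 3, and Mgst2 from 0.78 to −0.17 with 2D replicates 4 to 6. Gstp1 changed from 0.03 to −0.19 with 2D replicates 1 to 3. Gstp1 and Gsta3, with the fewest counts among the members, are the least precise, and how reads that match both Gsta1 and Gm3776 were counted is not given in the sources used here. The cause of the sets of libraries was not tested.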
